A study of Mus musculus with 48 samples.

Results

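The genes described here are 46 chemokines, cytokines and receptors of mouse cardiomyocytes, chosen by name from the 30743 gene rows of the deposited count file, and all 46 were present. They were grouped into 10 CC chemokines, 10 CXC and CX3C chemokines, 5 chemokine receptors, 8 genes of the interleukin 1 family, 8 other interleukins and receptors, and 5 genes of the tumour necrosis factor (TNF) family and Csf1. RNA was sequenced from cardiomyocytes freed from hearts by collagenase perfusion, with the right ventricle and the atria taken off. The study used C57BL/6J mice (C57n:C57mt), C3H/HeN mice (C3Hn:C3Hmt) and mitochondrial-nuclear exchange (MNX) mice, in which the nuclear genome (n) of either strain is combined with the mitochondrial genome (mt) of the other (C57n:C3Hmt and C3Hn:C57mt). A first set of 24 libraries, called set A here, carries the surgery in its titles. It holds 3 sham and 3 ACF libraries of each of 4 labelled genotypes, the ACF libraries being taken 3 days after surgery. ACF (aortocaval fistula) joins the aorta to the vena cava and loads the heart with volume. A second set of 24 libraries, set B, has no surgery word in its titles, is labelled sham throughout, and holds 6 libraries of each genotype. The labels name no transgene or deletion in any group and give no age. They do not say whether libraries come from separate animals, and the tests take in only how far these libraries spread, which may be technical.

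Chemokines are small secreted proteins that draw leukocytes along a gradient through receptors on those cells, and the CC and CXC classes are told apart by the spacing of their first cysteines. Interleukin 1, TNF and their relatives act through surface receptors that activate NF-kappa B and so raise many of the same chemokines. In the heart most of these genes are expressed by macrophages, neutrophils, fibroblasts and endothelial cells, while cardiomyocytes are known to express some of the receptors and a few ligands, so their levels in a cardiomyocyte preparation also depend on the other cells in it.

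Libraries held 15893595 to 26085689 counts, and levels are given in CPM, counts over the scaled library total, set by set. These are not divided by gene length, so levels are compared between libraries and never between genes. Summed cardiomyocyte markers lay between 34600 and 69800 CPM in every library but ACF library 489 of the C57n:C57mt genotype, which had 8430 CPM. In that library the summed macrophage markers were 366 CPM, against 43.5 to 189 CPM in the other 23 libraries of set A, and fibroblast markers were 1880 against 180 to 993 CPM. Its erythrocyte markers were 69600 CPM, against at most 296 CPM. The next highest macrophage and fibroblast sums of the set were those of ACF library 6756, titled C3H and labelled C57n:C3Hmt, and each ACF result is given with and without library 489. A second limit lies in the labels of set A. Exchanged libraries titled C57 are labelled C3Hn:C57mt and those titled C3H are labelled C57n:C3Hmt, yet the exchanged libraries differed from wild types of the same title strain in 0 genes (C57) and 3 genes (C3H) of 13440 tested, whereas the wild types differed from each other in 1497. By these counts, expression in the exchanged libraries went with the title strain and not with the labelled nucleus. Il15, for example, held 9.83 to 18.8 CPM in those labelled C3Hn:C57mt and 1.73 to 2.64 CPM in those labelled C57n:C3Hmt. In set B it held 2.91 to 4.73 CPM with the C3H nucleus and 14.7 to 24.5 CPM with the C57 nucleus. Whether the labels are the other way round was not tested. The genotype of exchanged set A libraries is given only as labelled, and nuclear and mitochondrial backgrounds are compared in set B.

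Upstream sequence was read from RefSeq's promoter table for the mouse assembly GRCm38.p6, which held 35 of the 46 genes. The 11 without an entry were Ccl2, Ccl4, Ccl5, Ccl7, Ccl11, Cxcl5, Cxcl16, Il10, Il10rb, Il15 and Il34. Shown are the 250 bases before the annotated start of 3 genes on which the nuclear comparison below turns: Cxcl9, an interferon gamma-induced T cell chemokine (chr5:92328080-92328329, minus strand), Cxcl14, a chemokine made by many resting tissues (chr13:56296552-56296801, minus strand), and Tnfrsf12a, the receptor of the TNF-like ligand TWEAK and also known as Fn14 (chr17:23677450-23677699, minus strand). Each is written 5′ to 3′ on the gene's strand, and capitals mark matches to the motifs searched.
Cxcl9: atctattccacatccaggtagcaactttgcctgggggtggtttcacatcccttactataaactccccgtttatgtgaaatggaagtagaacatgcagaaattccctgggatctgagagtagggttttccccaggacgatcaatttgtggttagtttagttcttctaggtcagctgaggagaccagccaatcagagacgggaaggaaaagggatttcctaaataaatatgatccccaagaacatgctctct
Cxcl14: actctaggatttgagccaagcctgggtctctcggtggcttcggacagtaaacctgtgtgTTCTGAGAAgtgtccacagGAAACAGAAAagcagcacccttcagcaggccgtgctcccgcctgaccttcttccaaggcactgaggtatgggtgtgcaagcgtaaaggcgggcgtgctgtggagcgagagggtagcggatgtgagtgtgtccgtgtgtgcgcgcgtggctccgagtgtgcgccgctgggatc
Tnfrsf12a: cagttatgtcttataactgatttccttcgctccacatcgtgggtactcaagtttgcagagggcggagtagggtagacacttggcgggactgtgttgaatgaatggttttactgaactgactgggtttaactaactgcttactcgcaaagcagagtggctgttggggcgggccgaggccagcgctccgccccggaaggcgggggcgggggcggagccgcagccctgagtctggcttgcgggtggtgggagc
The motifs were the kappa B consensus bound by NF-kappa B, the AP-1 site TGANTCA, the interferon gamma activation site TTCNNNGAA and the repeat bound by interferon regulatory factors, each searched on both strands. Cxcl14 held a match to TTCNNNGAA, found in 7.02% of 32851 promoters of the same length, and to the interferon regulatory factor repeat, found in 2.98%. None of the 4 motifs was matched in these windows of Cxcl9 or Tnfrsf12a, which says only that those letters are not in them. Among the 43 promoters listed for the 35 genes, 9 held the kappa B consensus (7.25% of all promoters), 7 held TGANTCA (6.75%), 4 held TTCNNNGAA (7.02%) and 3 held the interferon regulatory factor repeat (2.98%). A match is a description of the sequence and not a binding site.

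Across the 4 labelled genotypes, Tnfrsf12a was the 1 gene called for ACF in edgeR of the 36 that passed the low-count filter, and it was higher after ACF. DESeq2 gave an adjusted p to 31 of these genes and called 4, Tnfrsf12a, Ccr1 and Ccl6 as higher and Il15 as lower. Among all genes it called 1.83% of the 13317 to which it gave an adjusted p. In the C57 wild type Tnfrsf12a stood at 11.1, 12.6 and 8.39 CPM in sham libraries 464, 467 and 491 and at 17.7, 12.9 and 23.9 CPM in ACF libraries 465, 489 and 490. C3H wild-type libraries had 25.5, 18.8 and 23.9 CPM after sham and 48.9, 27.0 and 59.6 CPM after ACF. Libraries titled C57 and labelled C3Hn:C57mt had 10.2, 10.4 and 8.05 CPM after sham and 18.3, 30.9 and 22.0 CPM after ACF. Every ACF library lay above every sham library of its labelled genotype in these 3 genotypes. The same held for libraries titled C3H and labelled C57n:C3Hmt, with 22.6, 18.6 and 17.0 CPM after sham and 39.5, 36.5 and 24.7 CPM after ACF. This separation in all 4 genotypes in the direction of a rise was shared by 6 of 13440 genes (0.0446%). The mean log2 fold change was 0.97 (SE 0.139, adjusted p = 0.00971 by edgeR's quasi-likelihood test) and 1.02 without library 489 (SE 0.133, adjusted p = 0.00162). Of all genes tested, 37 passed (0.275%; 27 higher and 10 lower), and 125 passed without library 489 (0.923% of 13544). The gene for its ligand TWEAK, Tnfsf12, named here after its values were seen, had a log2 fold change of 0.14 (SE 0.244, adjusted p = 0.893).

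Il15, a cytokine that sustains natural killer cells and memory CD8 T cells, had a negative ACF effect that passed the threshold in some settings. Its levels were 19.1, 14.9 and 14.2 CPM in C57 wild-type sham libraries and 10.6, 6.26 and 11.9 CPM in the ACF libraries, the lowest being library 489. Exchanged libraries titled C57 had 14.4, 18.8 and 11.5 CPM after sham and 11.1, 9.83 and 11.3 CPM after ACF. Sham and ACF did not overlap in either of these groups. Of all 13440 genes, ACF lay wholly below sham in 407 in the C57 wild type and in 520 in these exchanged libraries. Il15 did overlap between surgeries in the C3H wild type, at 3.52, 2.58 and 3.14 CPM after sham against 2.76, 1.59 and 1.48 CPM after ACF. Exchanged libraries titled C3H also overlapped, at 2.56, 2.64 and 2.11 CPM against 2.2, 1.73 and 2.35 CPM. The mean log2 fold change was -0.53 with all libraries (SE 0.126, adjusted p = 0.0873) and -0.47 without library 489 (SE 0.111, adjusted p = 0.0482), so Il15 passed the threshold only in the second. It passed too without C3H wild-type ACF library 470 (adjusted p = 0.0368) and in DESeq2 (adjusted p = 0.0128). Its presenting receptor chain Il15ra had a log2 fold change of 0.10 with all libraries (adjusted p = 0.808). The ranges of the macrophage marker sum overlapped between surgeries, at 46.5 to 132 CPM after sham and 43.5 to 189 CPM after ACF without library 489.

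**Figure D1:**
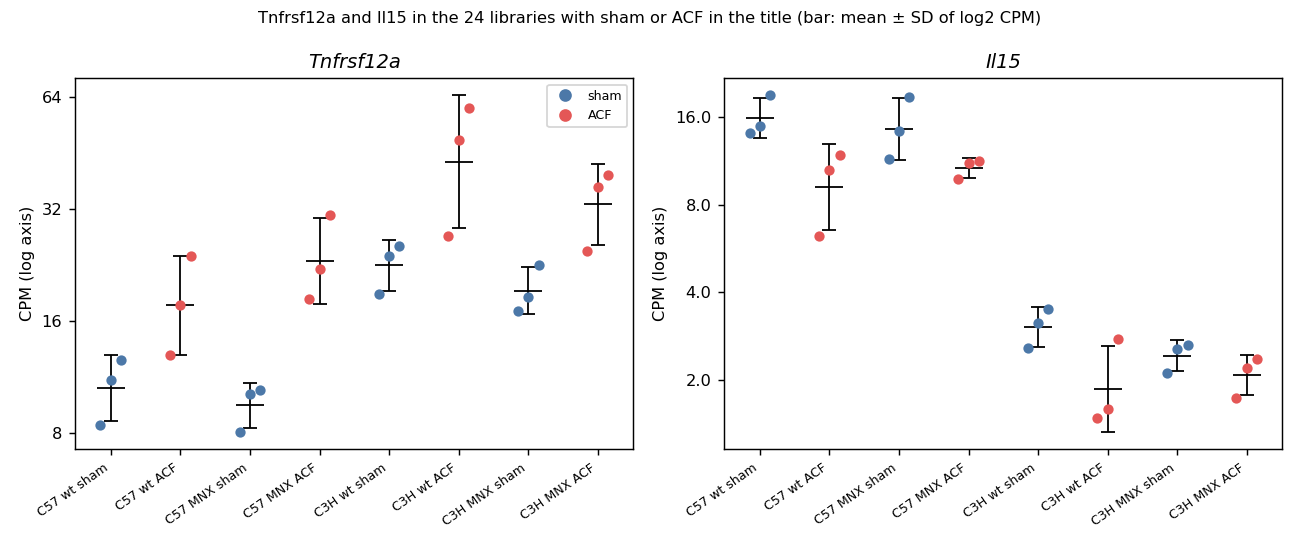
Tnfrsf12a (left) and Il15 (right) in the 24 set A libraries, in CPM on a log2 axis, by title strain, wild type or exchange (MNX), and surgery. Points are libraries, bars show the mean ± SD of log2 CPM of 3 libraries; ACF points lie above all sham points in each Tnfrsf12a pair, and Il15 differs more between C57 and C3H titles than between surgeries.

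The positive ACF effects of most other genes were larger with library 489 than without it. With it, 27 of 36 genes had a positive ACF effect and the median log2 fold change was 0.48, against 0.00 over all genes. Without it, 20 were positive and the median was 0.07. The 3 largest effects belonged to Ccr1, Ccl6 and Cxcl13. Ccr1, a receptor of myeloid cells, ranged from 0.101 to 0.989 CPM over 12 sham libraries (median 0.377) and from 0.149 to 25.8 CPM over 12 ACF libraries (median 0.881), with the top value in library 489 and the next at 1.92 CPM in library 6756. Its log2 fold change was 1.90 (SE 0.598, adjusted p = 0.194) and 0.92 without library 489. Ccl6, a myeloid chemokine, ranged from 1.12 to 3.88 CPM after sham (median 1.79) and from 1.37 to 79.6 CPM after ACF (median 2.33), the second highest being 8.09 CPM in C3H wild-type library 486. Its effect was 1.54 (SE 0.514, adjusted p = 0.236) and 0.49 without library 489. Cxcl13, which draws B cells to follicles, ranged from 0 to 1.37 CPM after sham (median 0.298) and from 0 to 6.01 CPM after ACF (median 0.991), with an effect of 1.51 (SE 0.727, adjusted p = 0.441) that became 0.43 without library 489. None of these 3 passed the threshold in either setting. DESeq2 called Ccr1 (adjusted p = 0.028) and Ccl6 (adjusted p = 0.047) with library 489 included.

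Library 489 had the highest level of the 24 set A libraries for 24 of the 36 tested genes (66.7%), against 30.4% of 13440 genes. Highest there were 4 CC chemokines (Ccl2, Ccl6, Ccl7, Ccl9), the neutrophil attractants Cxcl1 and Cxcl2 with their receptor Cxcr2, and the monocyte receptors Ccr2 and Cx3cr1. Il1b, the main secreted interleukin 1, was at 32.0 CPM in it, against 0.0503 to 1.58 CPM in the other 23 libraries. Ccr2 was at 25.8 CPM, against 0.0991 to 2.17 CPM, and its ligand Ccl2 at 23.9 CPM, against 0.302 to 2.85 CPM. Genes not highest in it included Tnfrsf12a at 12.9 CPM, Cxcl9 at 0.245 CPM and Il10rb, a receptor chain shared by the interleukin 10 family, at 26.2 CPM, where the other libraries held 49.3 to 93.0 CPM. In 13 of the 24 genes the second highest library was 6756. In bulk RNA, fewer or more cells of a type and less or more RNA per cell cannot be told apart, and the part that other cells had in these values was not tested.

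**Figure D2:**
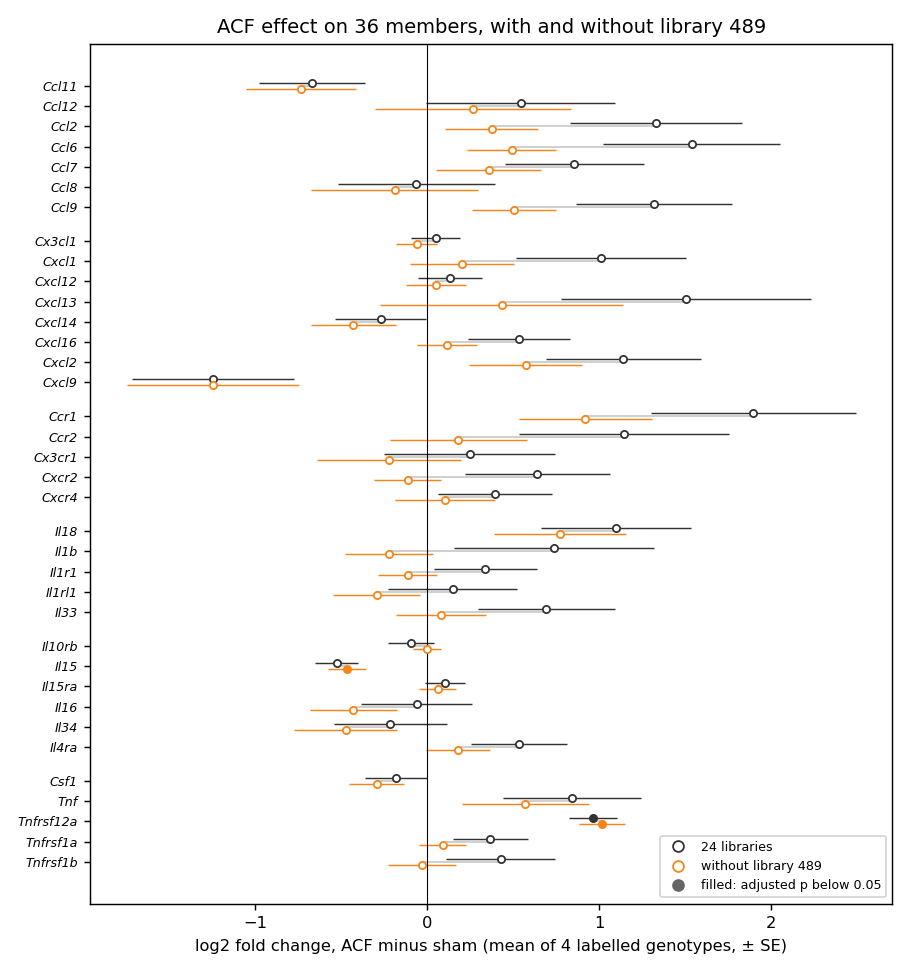
Log2 fold change ± SE of ACF against sham, averaged over 4 labelled genotypes, for 36 genes ordered by class, with 24 libraries (black) and without library 489 (orange); filled points passed an adjusted p of 0.05. Tnfrsf12a stays near 1 in both settings, while the effects of Ccr1, Ccl6 and Cxcl13 shrink from 1.90, 1.54 and 1.51 to 0.92, 0.49 and 0.43.

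Within single genotypes no gene of the 36 passed the threshold in edgeR. In the C57 wild type 0 genes were called among all tested (0%), and 15 of the 36 had an unadjusted p under 0.05, against 15.1% of all genes. DESeq2 gave an adjusted p to 27 of them and called 5 (Ccl2, Ccl6, Ccl9, Ccr1 and Cxcl1), against 1.37% of the 12798 genes to which it gave an adjusted p. The largest effects there were Ccr1 at 4.01 (SE 1.15, adjusted p = 0.171), Ccl6 at 4.00 (SE 1.08, adjusted p = 0.171) and Il1b at 3.92 (SE 0.983, adjusted p = 0.147). Ccl6 stood at 1.8, 1.87 and 1.44 CPM after sham and at 1.37, 79.6 and 1.61 CPM after ACF. Ccr1 stood at 0.424, 0.572 and 0.656 CPM after sham and at 0.876, 25.8 and 0.331 CPM after ACF, and Il1b at 0.847, 0.676 and 0.656 against 0.93, 32.0 and 0.614 CPM. In all 3 genes the middle ACF value of that order is library 489, and the other ACF libraries lie in or near the sham range. Without it the effects were 0.13 for Ccr1, -0.18 for Ccl6 and 0.09 for Il1b, with 1 gene called among 13544 (0.00738%). Leaving out library 465 or 490 instead, so that library 489 was 1 of 2 ACF libraries, raised the count of these genes called from 0 to 11 in each case. The count over all genes rose with it, to 874 of 13777 (6.34%) without library 465 and to 688 of 13773 (5%) without library 490.

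In the C3H wild type, 0 genes were called with all libraries (0%) and 6 of the 36 had an unadjusted p under 0.05, against 7.08% of all genes, while DESeq2 called none of them. Cxcl13 stood at 0.231, 0 and 0.106 CPM after sham and 0.883, 1.64 and 3.12 CPM after ACF, groups that did not overlap (log2 fold change 3.99, SE 1.62, adjusted p = 0.577). Cxcl9 stood at 1.85, 0.181 and 0.16 CPM after sham and 0.276, 0.182 and 0 CPM after ACF, which overlapped (-2.22, SE 0.923, adjusted p = 0.586). Without sham library 482, the Cxcl9 effect was -0.16. Ccl6 stood at 1.71, 1.27 and 1.12 CPM after sham and 2.21, 4.41 and 8.09 CPM after ACF, without overlap (1.84, SE 1.04, adjusted p = 0.782). Of all 13440 genes, ACF lay wholly above sham here in 1740 and wholly below in 1396, and of the 36 in 4 and 2. Library 489 is not in this genotype, but it enters the shared spread of the model. Without it 69 genes passed here (0.509%), still none of the 36, and without libraries 489 and 6756 Ccl6 passed (adjusted p = 0.0321) as did Tnfrsf12a, where 192 of 13507 genes passed (1.42%).

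Libraries titled C57 and labelled C3Hn:C57mt gave 0 calls among all genes (0%), and 0% again without library 489. Here Tnfrsf12a was the 1 gene of the 36 with an unadjusted p under 0.05, against 2.04% of all genes, with the largest effect of the 36 (1.32, SE 0.285, adjusted p = 1) and none called by DESeq2. Ccl11, the eosinophil attractant eotaxin, stood at 0.206, 0.495 and 0.857 CPM after sham and 0.164, 0.231 and 0.296 CPM after ACF (-1.15, SE 0.683, adjusted p = 1), which overlapped. Cxcl9 stood at 1.3, 2.12 and 3.43 CPM after sham and 0.572, 0.809 and 2.22 CPM after ACF (-0.93, SE 0.758, adjusted p = 1), which overlapped too.

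Libraries titled C3H and labelled C57n:C3Hmt gave 1 call among all genes (0.00744%; 0.00738% without library 489) and none among the 36, of which 2 had an unadjusted p under 0.05 (1.71% of all genes did) and 0 were called by DESeq2. Il18, which drives interferon gamma release, stood at 0.128, 0.0499 and 0 CPM after sham and 0.0862, 0.149 and 0.806 CPM after ACF (2.28, SE 0.977, adjusted p = 1). Ccl12, a ligand of Ccr2, stood at 0.213, 0.15 and 0.101 CPM after sham and 0.259, 0.496 and 1.05 CPM after ACF (1.87, SE 0.963, adjusted p = 1). Ccr1 stood at 0.384, 0.2 and 0.101 CPM after sham and 0.259, 0.149 and 1.92 CPM after ACF (1.64, SE 1.28, adjusted p = 1). The highest value of each was library 6756, and without it the effects were 0.84 for Il18, 1.23 for Ccl12 and -0.17 for Ccr1. Of the 36 genes 30 were positive here with all libraries, and 17 without libraries 489 and 6756.

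The difference between the wild-type ACF responses (C3H minus C57) called 0 genes in all (0%) in edgeR, with and without library 489. DESeq2 called 0 of the 31 genes here to which it gave an adjusted p. Of the 36, 5 had an unadjusted p under 0.05 in edgeR, against 10.1% of all genes. The largest differences were Il1b at -4.59 (SE 1.61), the neutrophil attractant Cxcl1 at -3.59 (SE 1.40) and Ccr2 at -3.29 (SE 1.82), with adjusted p of 0.475, 0.475 and 0.476. Cxcl1 stood at 0.159, 0.468 and 0.525 CPM in C57 sham and at 0.602, 13.0 and 0.378 CPM in C57 ACF libraries, against 0.741, 0.497 and 0.266 and then 0.276, 0.637 and 0.581 CPM in C3H. Ccr2 stood at 0.318, 0.884 and 1.11 and then 0.766, 25.8 and 0.473 CPM in C57, against 0.278, 0.181 and 0.266 and then 0.442, 0.319 and 0.106 CPM in C3H. C3H Il1b stood at 0.231, 0.316 and 0.266 CPM after sham and 0.0552, 0.228 and 0.211 CPM after ACF. All 3 differences rested on library 489: without it they were -0.77, -0.39 and 0.54.

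Among the other genes of the pathway, a list of further chemokines, cytokine ligands, receptors and NF-kappa B regulators with 56 members tested in set A, 0 passed for the mean ACF effect in edgeR, with 18 at an unadjusted p under 0.05 with library 489 and 11 without it, against 11.3% and 12.6% of all genes. Their median log2 fold change was 0.25 with library 489 and 0.06 without. Of the macrophage markers, 10 of 10 tested were positive with library 489 and 6 of 10 without, and of the 7 fibroblast markers 6 were positive with it and 3 without. The neutrophil marker sum was 92.9 CPM in library 489 and 96.7 CPM in library 6693, an ACF library titled C57 and labelled C3Hn:C57mt, and at most 5.28 CPM in the other set A libraries. In library 6693 Cxcr2, the neutrophil chemokine receptor, stood at 1.11 CPM, the highest of the 23 set A libraries other than 489 (median 0.599). Il1b stood at 0.887 CPM in it, where those 23 libraries ranged from 0.0503 to 1.58 CPM (median 0.372).

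Nuclear background was the comparison with the most calls, among these genes as among all genes. In set B, 4776 of 13395 genes differed between C3H and C57 nuclei (35.7%; 18.9% higher and 16.8% lower in C3H), averaged over the mitochondrial backgrounds. Of the 33 genes here that passed the low-count filter, 19 were called, 5 higher and 14 lower with the C3H nucleus, and their median was -0.32 against 0.01 over all genes. The interleukins led the lower side, with 5 of 6 other interleukins and receptors and 3 of 5 interleukin 1 family genes lower and none higher.

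Il15 was the clearest case. It ranged from 2.91 to 4.73 CPM over the 12 libraries with a C3H nucleus (median 3.61) and from 14.7 to 24.5 CPM over the 12 with a C57 nucleus (median 19.5). The groups lay far apart, with a log2 fold change of -2.43 (SE 0.0856, adjusted p = 4.4e-18). Cxcl9 ranged from 0.0991 to 0.794 CPM (median 0.39) with the C3H nucleus and from 1.94 to 5.45 CPM (median 3.59) with the C57 nucleus, again without overlap (-3.08, SE 0.238, adjusted p = 5.4e-11). These were the 2 genes of the 33 whose nuclear groups did not overlap at all, against 6.1% of all genes. In set A the same held by title strain for Il15, at 1.48 to 3.52 CPM in C3H titles and 6.26 to 19.1 CPM in C57 titles. Non-overlap by title strain was found for 2 of the 36 genes, Il15 and Il1b, and 3.1% of all genes. Cxcl9 overlapped there, at 0 to 1.85 CPM in C3H titles and 0.0945 to 3.43 CPM in C57 titles. In edgeR with all libraries, Cxcl9 was not among the genes called between set A wild types.

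Ccr2 and Cx3cr1, receptors of monocytes and macrophages, were called lower with the C3H nucleus, 2 of the 4 chemokine receptors tested in set B. Ccr2, the receptor of Ccl2, ranged from 0.113 to 1.17 CPM (median 0.311) with C3H and from 0.628 to 2.09 CPM (median 1.11) with C57 (-1.67, SE 0.267, adjusted p = 1.6e-05). The fractalkine receptor Cx3cr1 ranged from 0.331 to 0.955 CPM (median 0.662) with C3H and from 0.157 to 2.43 CPM (median 1.6) with C57 (-1.27, SE 0.262, adjusted p = 0.000383). Both ranges overlapped. Cx3cr1 lost its call with the L code described below as a covariate (-0.82, adjusted p = 0.447). The chemokine receptors Cxcr2 and Cxcr4 were not called, at 0.40 and 0.23, and Ccr1 was under the low-count filter. Of the 10 macrophage markers tested, 5 were called lower and 1 higher, the sum ranging from 40.7 to 200 CPM (median 75.8) with C3H and from 56.2 to 208 CPM (median 87.2) with C57. Their part in the receptor result was not tested. None of these 10 markers was at 0 counts in any library of either set. Of the neutrophil markers, Camp was at 0 in 38 libraries, Retnlg in 27 and Ngp in 26. S100a8 was at 0 in 9, S100a9 in 3, and Csf3r and Mmp9 in 0.

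In the interleukin 1 family, Il1rl1, the receptor of Il33, ranged from 0.0367 to 0.458 CPM (median 0.202) with the C3H nucleus and from 0.349 to 1.31 CPM (median 0.56) with C57 (-1.61, SE 0.301, adjusted p = 0.000125). Il18 ranged from 0.0809 to 0.582 CPM (median 0.141) with C3H and from 0.194 to 1.84 CPM (median 0.271) with C57 (-1.38, SE 0.387, adjusted p = 0.00655). Il1b ranged from 0.11 to 0.863 CPM (median 0.344) against 0.349 to 3.34 CPM (median 0.634), a difference of -0.99 (SE 0.335, adjusted p = 0.0225). All 3 are low in these cells and their ranges overlapped. Without libraries 1 and 23, which had the highest macrophage marker sums of set B, Il1b no longer passed (-0.66, adjusted p = 0.0643) and Il18 fell under the low-count filter. Ccl8 also fell under the low-count filter in that fit, which called Il33, Ccl6 and Ccl9. It called 19 of the 31 genes tested here, and 5622 of 13393 among all genes. With all libraries, Il33 and the signalling receptor Il1r1 were not called, at -0.45 and 0.00.

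The remaining interleukin genes differed by less. Il34, which shares the receptor of Csf1, ranged from 0.478 to 1.21 CPM (median 0.644) with C3H and 0.562 to 1.46 CPM (median 1.01) with C57 (-0.56, SE 0.168, adjusted p = 0.00992). Il16, a ligand of CD4, ranged from 1.81 to 4.45 CPM (median 3.02) against 2.14 to 8.22 CPM (median 3.98), a difference of -0.50 (SE 0.162, adjusted p = 0.0168). Il15ra ranged from 6.52 to 10.6 CPM (median 7.83) against 7.53 to 13.8 CPM (median 10.0), a difference of -0.32 (SE 0.0871, adjusted p = 0.005). The genes for Il15 and its receptor chain were thus both lower with the C3H nucleus, by very unequal amounts. Il10rb ranged from 87.9 to 119 CPM (median 98.9) against 99.96 to 132 CPM (median 114), the smallest called difference (-0.19, SE 0.05, adjusted p = 0.0032). Il4ra was not called (-0.27).

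TNF itself and its receptors went opposite ways. Tnf ranged from 0.257 to 1.87 CPM (median 0.684) with the C3H nucleus and 0.131 to 0.806 CPM (median 0.321) with C57, a higher level with C3H (0.91, SE 0.312, adjusted p = 0.024). Its main receptor Tnfrsf1a ranged from 12.6 to 23.9 CPM (median 15.9) against 15.6 to 31.1 CPM (median 22.5), a lower level (-0.51, SE 0.0932, adjusted p = 0.000102). The second receptor Tnfrsf1b ranged from 1.54 to 6.61 CPM (median 2.94) against 3.24 to 6.68 CPM (median 4.79), also lower (-0.59, SE 0.153, adjusted p = 0.00362). All 3 ranges overlapped between nuclei. Csf1, the growth factor of macrophages, ranged from 27.8 to 63.8 CPM (median 42.9) against 41.2 to 60.6 CPM (median 53.1), a small difference (-0.32, SE 0.105, adjusted p = 0.0192). Tnfrsf12a was higher with C3H, at 33.6 to 53.9 CPM (median 41.3) against 15.0 to 38.1 CPM (median 24.5), a difference of 0.72 (SE 0.114, adjusted p = 1.2e-05). The gene that ACF raised in set A thus also differed between nuclear backgrounds without ACF.

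Among chemokines, 3 were higher and 1 (Cxcl9) lower with the C3H nucleus, of 13 tested. Cxcl14 ranged from 4.59 to 19.6 CPM (median 8.83) with C3H and 2.14 to 7.29 CPM (median 4.33) with C57 (1.19, SE 0.158, adjusted p = 9.7e-07). Ccl8, a monocyte attractant, ranged from 0.149 to 1.24 CPM (median 0.361) against 0 to 0.422 CPM (median 0.137), a difference of 1.72 (SE 0.421, adjusted p = 0.0021). Without libraries 1 and 23, Ccl8 fell under the low-count filter and was not tested. Ccl11 ranged from 0.688 to 2.19 CPM (median 1.17) against 0.157 to 1.14 CPM (median 0.844), a difference of 0.68 (SE 0.217, adjusted p = 0.0161). Their ranges overlapped. The 9 chemokines not called included the Ccr2 ligands Ccl2 and Ccl7 (-0.37 and -0.19), the neutrophil attractants Cxcl1 and Cxcl2 (0.22 and 0.11), and Cxcl12 (0.08), the ligand of Cxcr4.

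**Figure D3:**
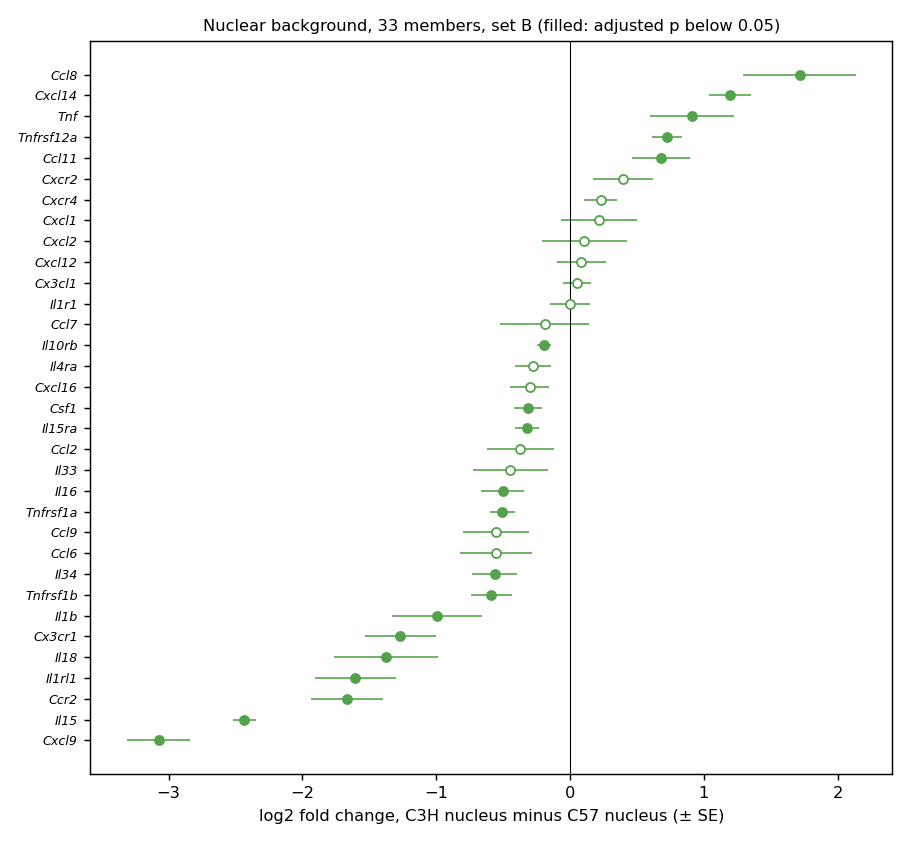
Log2 fold change ± SE between C3H and C57 nuclei in set B for 33 genes, sorted by size; filled points passed an adjusted p of 0.05. Cxcl9 and Il15 lie at the low end (-3.08 and -2.43), and Cxcl14 and Ccl8 at the high end (1.19 and 1.72).

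The titles also carry a code, the letter L with a digit, that is not explained by the labels and goes largely with the groups of set B: all C57n:C57mt libraries have 8 and all C3Hn:C3Hmt libraries have 3. With this code as a covariate, 1399 of 13395 genes passed (10.4%), and 5 of the 19 genes still passed: Il15 (-2.48), Cxcl9 (-3.41), Ccr2 (-2.87), Cxcl14 (1.74) and Tnfrsf12a (0.97). The 14 others kept their direction but not the threshold, with adjusted p from 0.112 to 0.827. Among the 8 exchanged libraries that share code 2, which holds 4 of each nucleus, Il15 ranged from 1.67 to 2.26 log2 CPM with C3H and 4.23 to 4.42 with C57. Cxcl9, Ccr2, Cxcl14, Il15ra, Il1rl1, Csf1 and Cxcl1 also did not overlap there, which makes 8 of 33, and Tnfrsf12a did (5.08 to 5.52 against 4.40 to 5.25). Among all genes the nuclei did not overlap in these 8 libraries for 31.3%, a share above that of the 33.

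In set A, where nucleus and mitochondria differ together between wild types, 8 of 36 genes were called, against 11.1% of all genes, and 5 without library 489, against 14.2%. Il15 (-2.34, SE 0.182, adjusted p = 1.8e-08), Tnfrsf12a (1.199, SE 0.197, adjusted p = 0.000275), Cxcl14 (1.24, adjusted p = 0.0395), Ccl11 (1.46, adjusted p = 0.0333) and Il1b (-3.70, adjusted p = 0.0033) were called in both. Without library 489 these were -2.44, 1.12, 1.58, 1.61 and -1.75. DESeq2 with all libraries called 7 of the 31 to which it gave an adjusted p, against 1959 of 13317 genes. They were Ccl11, Ccr1, Cx3cr1, Cxcl14, Il15, Il18 and Tnfrsf12a, so Il1b and Ccr2 were not among them. Il1b ranged from 0.0552 to 0.316 CPM over 6 C3H libraries (median 0.23) and from 0.614 to 0.93 CPM over the 5 C57 libraries other than 489, which did not overlap. Cxcl14 ranged from 1.71 to 7.13 CPM (median 3.73) in C3H and 0.985 to 1.61 CPM (median 1.32) in those 5 C57 libraries, and Ccl11 from 0.166 to 1.9 CPM (median 0.952) against 0.109 to 0.424 CPM (median 0.331). Il15 held 1.48 to 3.52 CPM against 10.6 to 19.1 CPM, and Tnfrsf12a 18.8 to 59.6 CPM (median 26.2) against 8.39 to 23.9 CPM (median 12.6).

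The other 3 calls of set A, Ccr2, Cx3cr1 and Il18, were lost without library 489, and they were also lost without some other single libraries, in all without 4, 6 and 16 of the 24. Without libraries 489 and 6756 together, Ccr2 and Cx3cr1 were called and Il18 was not. That fit called 7 of the 36 genes, against 2295 of 13507 among all genes. Library 6756 is in neither wild type but enters the shared spread of the model. Ccr2 ranged from 0.106 to 0.442 CPM in C3H (median 0.272) and from 0.318 to 1.11 CPM in the 5 other C57 libraries (-3.28 with library 489, adjusted p = 0.0196, and -1.34, adjusted p = 0.164, without it). Cx3cr1 ranged from 0 to 0.91 CPM (median 0.269) against 0.656 to 2.08 CPM (-2.48, adjusted p = 0.0301, and -1.52, adjusted p = 0.116, without library 489). Il18 ranged from 0.0904 to 0.211 CPM (median 0.171) against 0.26 to 0.721 CPM (-1.89, adjusted p = 0.0444, and -1.22, adjusted p = 0.144, without it). The direction of all 8 was that of set B. Of the 10 macrophage markers, 10 were lower in C3H wild types with library 489 and 7 without it.

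In set B, 35.7% of all genes were called between nuclei, 18.9% higher and 16.8% lower with C3H. Of the 56 pathway genes tested there, 6 were higher and 15 lower with the C3H nucleus. The 6 with the smallest p were the skin-type chemokine Ccl27a (-3.71, SE 0.202, adjusted p = 4.3e-14), the NF-kappa B inhibitor Tnip1 (1.00, SE 0.0646), the cytokine Clcf1 (-1.18, SE 0.155), the chemerin-binding receptor Ccrl2 (-0.57, SE 0.0999), the interferon receptor chain Ifnar2 (-0.36, SE 0.0665) and the interleukin 1 receptor adaptor Myd88 (-0.35, SE 0.076). Ccl27a has near-identical copies in the mouse genome, so its counts are uncertain. In the wild types of set A, where 11.1% of all genes were called, 1 of 56 was higher and 6 were lower. Ccl27a (-3.92), Tnip1 (0.76) and Clcf1 (-1.84) were among them. Per the submitters' processing notes the build was mm9, the C57BL/6J genome, though the mapping behind the deposited counts is not settled. The effect of strain on mapping was not tested.

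**Figure D4:**
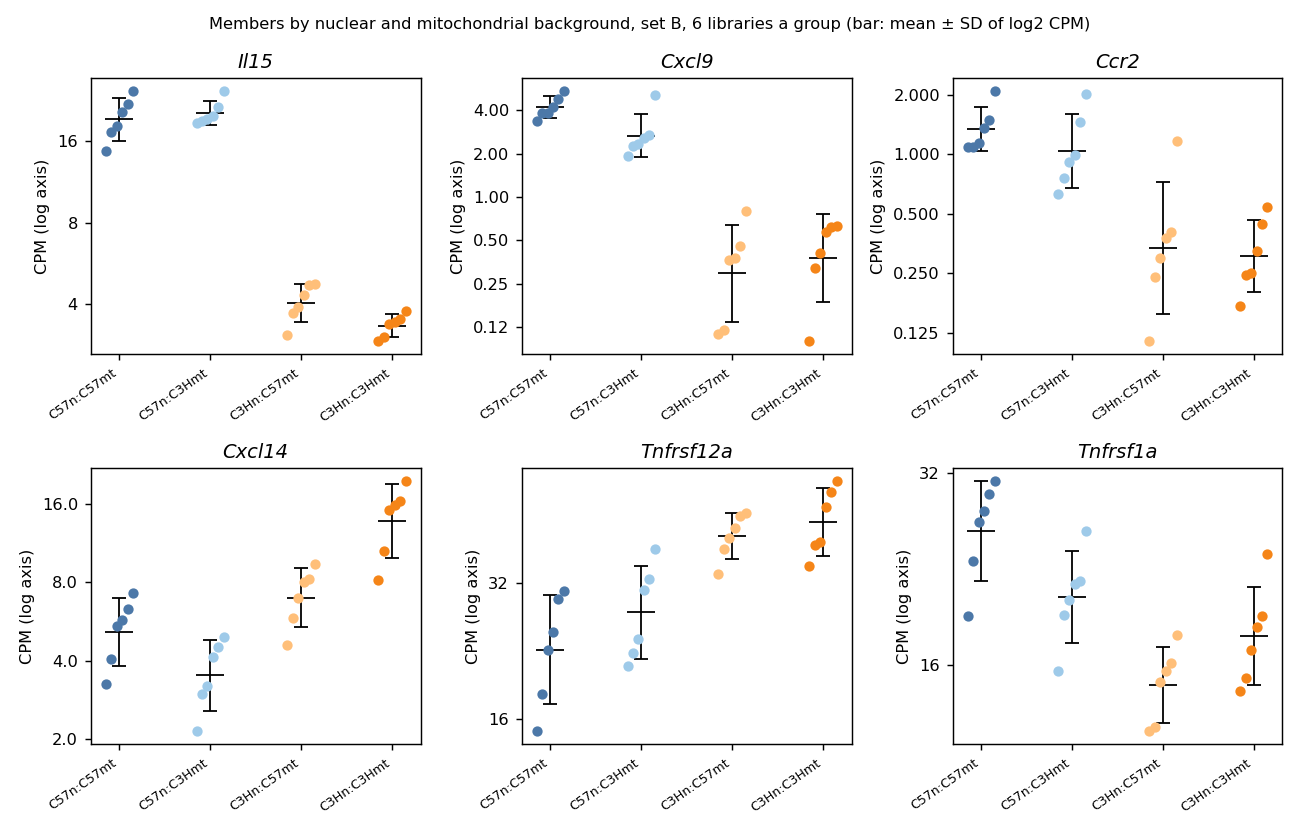
Il15, Cxcl9, Ccr2, Cxcl14, Tnfrsf12a and Tnfrsf1a in the 24 set B libraries, in CPM on log2 axes, by nuclear (n) and mitochondrial (mt) background. Points are libraries and bars the mean ± SD of log2 CPM of 6; Il15 and Cxcl9 separate fully by nucleus, and Cxcl14 is highest in C3Hn:C3Hmt.

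In edgeR, mitochondrial background called none of these genes. Averaged over nuclei, 0 of 13395 genes and 0 of 33 here passed in edgeR (0%), with 2 of the 33 at an unadjusted p under 0.05, against 4.1% of all genes, and 0 called by DESeq2. The largest differences of C3H against C57 mitochondria were in Cxcl2 (-0.68, SE 0.321), Il18 (-0.57, SE 0.397) and Il1b (-0.52, SE 0.337), all with an adjusted p of 0.914. Il15 and Tnfrsf12a, which differed by nucleus, had mitochondrial differences of -0.11 (SE 0.0836) and 0.19 (SE 0.113).

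The 2 nuclei gave mitochondrial differences of opposite sign. On the C57 nucleus 28 of 33 genes were lower with C3H mitochondria, with a median of -0.42 and 9 at an unadjusted p under 0.05, against 11.3% of all genes. On the C3H nucleus 29 of 33 were higher, with a median of 0.26 and 5 at that level, against 9.38% of all genes. Over all genes the medians were -0.01 and 0.00. In edgeR 0 of the 33 passed on either nucleus, against 0% of all genes on C57 and 0.00747% on C3H. DESeq2 called 0 on the C57 nucleus and 1, Cxcl14, on the C3H nucleus, where it called 0.0523% of 13381 genes. The 2 differences come from separate libraries, 12 each, and within each the genes share those libraries. In both, most of the genes were higher in the wild type than in the exchanged libraries of that nucleus. The L code goes in part with this contrast. Code 2 is held by 4 exchanged libraries of each nucleus, while the wild types have code 8 (C57) or 3 (C3H). With the code as a covariate, 0 of the 33 passed on either nucleus, and its part in the signs was not tested.

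On the C57 nucleus, Il18 ranged from 0.194 to 1.84 CPM in wild-type libraries (median 0.571) and from 0.219 to 0.504 CPM with C3H mitochondria (median 0.234; -1.51, SE 0.48, adjusted p = 0.27). Cxcl2 ranged from 0.787 to 2.96 CPM (median 1.41) against 0.0582 to 0.846 CPM (median 0.589), a difference of -1.47 (SE 0.468, adjusted p = 0.27). Il1b ranged from 0.437 to 3.34 CPM (median 0.863) against 0.349 to 0.805 CPM (median 0.46), a difference of -1.21 (SE 0.445, adjusted p = 0.316). All 3 ranges overlapped. On the C3H nucleus, Cxcl14 ranged from 8.18 to 19.6 CPM in wild-type libraries (median 15.5) and from 4.59 to 9.43 CPM with C57 mitochondria (median 7.48; 0.99, SE 0.214, adjusted p = 0.33). Ccl8 ranged from 0.322 to 1.24 CPM (median 0.612) against 0.149 to 1.1 CPM (median 0.204), a difference of 0.88 (SE 0.473, adjusted p = 0.561). Ccl7 ranged from 0.742 to 2.29 CPM (median 1.39) against 0.257 to 1.31 CPM (median 0.813), a difference of 0.67 (SE 0.465, adjusted p = 0.646).

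The test of the difference between both mitochondrial effects called 0 genes (0%) and 0 of the 33 in edgeR, with 14 of the 33 at an unadjusted p under 0.05, against 16.3% of all genes. DESeq2 called 2 of them, Cxcl14 and Cxcl16, against 2.52% of the 13121 genes to which it gave an adjusted p. The largest were Il18 (1.88, SE 0.781, adjusted p = 0.231), Ccl8 (1.81, SE 0.871, adjusted p = 0.3) and Cxcl2 (1.57, SE 0.642, adjusted p = 0.223). Cxcl14 had the smallest p (1.55, SE 0.316, adjusted p = 0.0817), with ranges of 3.25 to 7.29 CPM in C57n:C57mt and 2.14 to 4.93 CPM in C57n:C3Hmt beside the C3H values above. Ccl8 held 0.0437 to 0.422 CPM and 0 to 0.219 CPM in those groups, and on the C3H nucleus Cxcl2 held 0.215 to 2.83 CPM in C3Hn:C3Hmt and 0.514 to 1.43 CPM in C3Hn:C57mt. Il18 on that nucleus held 0.0809 to 0.582 CPM and 0.11 to 0.25 CPM. Macrophage marker sums went with these signs, at 84.3 to 208 CPM in C57n:C57mt against 56.2 to 87.3 CPM in C57n:C3Hmt, and at 55.8 to 200 CPM in C3Hn:C3Hmt against 40.7 to 86.3 CPM in C3Hn:C57mt. All 10 macrophage markers were lower on the C57 nucleus and higher on the C3H nucleus with C3H mitochondria. The part of these cells in the chemokine values was not tested. Pathway genes had the same pattern of signs, 43 of 56 lower on the C57 nucleus and 44 of 56 higher on the C3H nucleus. Of them, 0 were called by edgeR on either and 10 on each had an unadjusted p under 0.05. Among all genes, 11.3% were at that level on the C57 nucleus and 9.38% on the C3H nucleus.

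**Figure D5:**
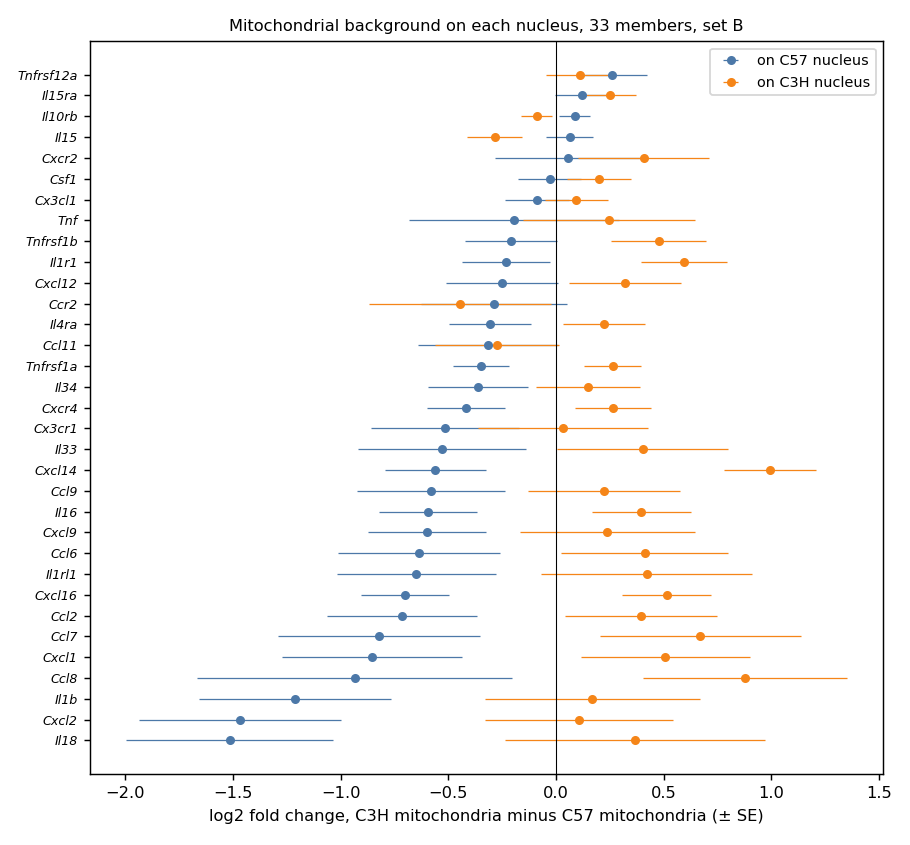
Log2 fold change ± SE of C3H against C57 mitochondria in set B for 33 genes, on the C57 nucleus (blue) and on the C3H nucleus (orange), sorted by the former. Most blue points lie below 0 (28 of 33) and most orange points above 0 (29 of 33), and none passed the threshold in edgeR. The L code also differs in part between the wild-type and exchanged libraries compared.

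Exchanged libraries of set A were compared with wild types of the same title strain. Among C57 titles 0 of 13440 genes passed (0%) and 0 of 36 here, with 3 of the 36 at an unadjusted p under 0.05 (4.11% of all genes were) and 0 called by DESeq2. The largest differences were Il1b at -1.76, Ccl2 at -1.50 and Cxcl9 at 1.37, with an adjusted p of 1.00 each. Il1b held 0.892, 0.707 and 1.58 CPM in exchanged sham and 0.654, 0.462 and 0.887 CPM in exchanged ACF libraries, a wider range than the 0.614 to 0.93 CPM of the wild types other than library 489. Ccl2, which recruits monocytes, held 0.961, 0.565 and 0.791 and then 0.899, 1.44 and 0.74 CPM in these libraries, against 0.53, 1.09 and 0.721 and then 0.438, 23.9 and 0.709 CPM in wild types. Wild-type Cxcl9 held 1.85, 1.92 and 0.918 CPM after sham and 0.438, 0.245 and 0.0945 CPM after ACF. Without library 489 the differences of Il1b and Ccl2 were 0.16 and 0.41, and 33 of 36 genes were positive where 14 had been.

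Among C3H titles 3 genes passed (0.0223%), none of them among the 36, none of which had an unadjusted p under 0.05 (3.12% of all genes had) and 0 of which were called by DESeq2. The largest differences were Cx3cr1 at 1.22 (SE 0.734), Cxcl9 at -1.19 (SE 0.727) and Cxcl1 at 1.00 (SE 0.676). Cx3cr1 held 0.602, 0.271 and 0.266 CPM in wild-type sham, 0.11, 0.91 and 0 CPM in wild-type ACF, 0.811, 0.948 and 0.201 CPM in exchanged sham and 0.474, 0.297 and 2.73 CPM in exchanged ACF libraries. Exchanged Cxcl9 held 0.171, 0.0998 and 0.0503 CPM after sham and 0.129, 0.149 and 0.31 CPM after ACF. Exchanged Cxcl1 held 1.15, 0.499 and 0.402 CPM after sham and 0.819, 1.29 and 2.42 CPM after ACF. The highest Cx3cr1 and Cxcl1 values among them were those of library 6756. Without it the Cx3cr1 difference was 0.45, and without wild-type ACF library 471 it was 2.50. The Cxcl9 difference was -0.16 without wild-type sham library 482.

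Some of the best-known inflammatory cytokines were near the limit of detection. Ccl3, Ccl4, Ccl5, Cxcl5, Cxcl10, Il1a, Il1rn, Il1r2, Il6 and Il10 did not pass the low-count filter in either set, and Ccl12, Cxcl13 and Ccr1 did not in set B. Il6 had a median of 1 count in set A and 2 in set B, and Il10, which restrains inflammation, a median of 0 in both with at most 6 counts in any library. Cxcl5, a neutrophil attractant, had at most 7 counts in set A outside library 489, where it had 265. Il1r2, the decoy receptor of interleukin 1, had 40 counts in library 489 and at most 3 elsewhere in set A. In a fit with no low-count filter, Cxcl10, a chemokine induced by interferon gamma, and Ccr1 were called lower with the C3H nucleus of set B (-2.40, SE 0.512, adjusted p = 0.000613 for Cxcl10 and -0.98, SE 0.322, adjusted p = 0.0244 for Ccr1). Cxcl10 ranged from 0 to 0.173 CPM (median 0.0955) with C3H and from 0 to 2.04 CPM (median 0.287) with C57, which overlapped. None of the other genes under the filter was called in that fit in any of the comparisons above.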

How the data were processed

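Poly(A) RNA of 48 cardiomyocyte libraries was sequenced with a stranded kit, per the labels' protocols. The authors deposited 1 table of expected counts, a row per gene and a column per library, in which 13.9% of values were not whole. Per the submitters' processing notes, the tools were RSEM 1.2.0, Bowtie and CASAVA 1.8.2, and the build was mm9. The labels' protocol also names a mapping method of the sequencing provider, and which of these made the deposited counts is not given in the sources used here. Expected counts divide reads among genes of similar sequence.

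Counts were rounded and fitted with edgeR 4.0.16 in R 4.3.3: TMM scaling, filterByExpr by group, the quasi-likelihood F test, and Benjamini-Hochberg adjustment over all genes tested at 0.05. Sets A and B were fitted separately with 1 mean per group and no covariate. SE is the size of the log2 fold change divided by the square root of F. Log2 CPM carry a prior count of 2. A positive difference means higher after ACF, with the C3H genome, or in exchanged libraries. The script was tested on simulated counts. No 2 libraries of the same group agreed within sampling noise (lowest chi-square per degree of freedom 3.858), and pairs across groups were not compared.

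The members and gene lists were chosen with earlier results of these data known. A member is given library by library, or by lowest, median and highest value in larger groups, if it passed a comparison, or else if it had 1 of the 3 largest changes in it. Of the pathway list, up to 6 called genes with the smallest p were named per comparison. Also run were a fit with no low-count filter, one with the L code as a covariate, fits that left out libraries, DESeq2 1.42.0, and edgeR scaled by size factors of the DESeq2 kind. The set B fit without libraries 1 and 23 was added after seeing the data.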

Additional observations from a re-analysis of the deposited data

Results flagged for a closer look

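In groups of 6 libraries, a library was singled out where its gap to the nearest other exceeded Dixon's critical share of the group's range. This happened in 9 of 84 groups tested (21 genes). The genes were those named in set B comparisons of these same data, and they share the same libraries. The nominal rate of about 1 in 20 therefore does not apply to this count. All values are log2 CPM. In C3Hn:C57mt, Ccl7 was -1.53 in library 17 against -0.26 to 0.49 in the others, and Ccl8 was 0.25 in library 18 against -2.07 to -1.53. In C57n:C3Hmt, Cx3cr1 was -2.02 in library 10 against 0.03 to 1.24, and Il18 was -0.75 in library 9 against -1.70 to -1.51. Library 8 of that group stood apart for Cxcl2, low at -2.76 against -0.71 to -0.10, and for Cxcl9, high at 2.38 against 1.02 to 1.48. In C57n:C57mt, Il10rb was 6.64 in library 1 against 6.79 to 6.87, and Il34 was -0.62 in library 5 against 0.17 to 0.63. In C3Hn:C3Hmt, Il18 was -0.57 in library 23 against -2.56 to -1.94. Libraries 1 and 23 also had the highest macrophage marker sums of set B (208 and 200 CPM). What part these cells had in the values was not tested.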

How the results depend on the processing

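No paired analysis was possible because the groups share no replicate numbers. Tnfrsf12a passed for ACF under each left-out library (0.90 to 1.03). DESeq2 called 4 members for the mean ACF effect, 5 for ACF in C57n:C57mt, 1 for mitochondria on the C3H nucleus and 2 for the nuclear by mitochondrial difference. Without libraries 489 and 6756, 3 members passed for the mean ACF effect and 2 in C3Hn:C3Hmt. With the L code as a covariate, 5 passed between set A wild types (1290 of 13440 genes) and 5 between nuclei in set B (1399 of 13395). Leaving out 1 library gave 1 to 2 members for mean ACF and 0 to 11 for ACF in C57n:C57mt. Between set A wild types it gave 4 to 13 (13 without library 465, where 1965 of 13777 genes passed). There Ccl11, Cxcl14 and Il18 lost their calls without 5, 9 and 16 of the 24 libraries. Signs turned as follows. Without libraries 489 and 6756, Cxcl13 for mean ACF was -0.028, Ccl6 in C57n:C57mt -0.18, Ccr1 in labelled C57n:C3Hmt -0.17, the Ccr2 strain difference 0.54, and exchanged C57 titles had 0.41 (Ccl2) and 0.16 (Il1b). Leaving out 1 library, these ran from -0.18 to 4.54 (Ccl6), -0.17 to 2.25 (Ccr1), -3.83 to 0.54 (Ccr2), -1.77 to 0.41 (Ccl2) and -2.03 to 0.16 (Il1b). With the L code, the Ccr2 difference was 1.45, the Ccl2 difference 0.27 and Ccl8 for mitochondria on the C3H nucleus -0.030.

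Over all genes, the 37 ACF calls became 244 in DESeq2, 12 to 174 without 1 library (174 without 465, 125 without 489, 56 without 490) and 344 without 489 and 6756. In C57n:C57mt 0 became 175 in DESeq2, up to 874 without 1 library (874 without 465, 688 without 490) and 1 without both. In C3Hn:C3Hmt 0 became 82, up to 69 and 192. Labelled C3Hn:C57mt went from 0 to 1 in DESeq2, and labelled C57n:C3Hmt from 1 to 3, with 0 under the L code and 2 without both. The strain difference went from 0 to 3 in DESeq2 and 1 without both. Set A wild types went from 1497 to 1102 to 2046 without 1 library and 2295 without both. Exchanged C57 titles reached 2 without both, and C3H titles went from 3 to 12 (DESeq2), 1 (L code) and 5 (without both). In set B the nuclear 4776 became 1399 under the L code. Mitochondrial calls in DESeq2 and under the L code were 1 and 3 (mean), 7 and 30 (C3H nucleus), and 331 and 2 (interaction), and 15 in DESeq2 on the C57 nucleus. Except where a library was left out, the cause was not tested. Genes at a few counts are limited by depth.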
